A study of Mus musculus with 12 samples.

Results

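A set of 9 genes of the transforming growth factor beta (TGF-beta) pathway was followed across tumours: the ligand genes Tgfb1, Tgfb2 and Tgfb3, the activin subunit gene Inhba, the receptor genes Tgfbr1 and Tgfbr2, and the early target genes Smad7, Skil and Il11. They were chosen by name, with earlier results of these data known. All 9 were found among the 56884 genes of the deposited count tables. All 9 also passed the filter on low counts, which kept 17757 genes. The libraries came from mouse tumours, described by the labels as TS/A, a breast cancer cell line, combined with cancer-associated fibroblasts in animals of WT genotype. There were 3 libraries in each of 4 groups. RT_FAP41BBL had radiotherapy and muFAP-4-1BBL, RT had radiotherapy, FAP41BBL had muFAP-4-1BBL, and untreated had neither, with its treatment given as None in the sample labels and as a vehicle in the series text. The agent muFAP-4-1BBL stimulates 4-1BB, a costimulatory receptor on T cells, and is targeted to fibroblast activation protein. No dose, harvest time, age or strain was given, and the labels do not say which animal gave which library. The p-values reflect only how far these samples scatter, and that scatter may be technical.

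TGF-beta is secreted in a latent complex with its own propeptide and is set free by integrins, proteases and, in irradiated tissue, by oxidation. Free ligand binds the type II receptor encoded by Tgfbr2, which phosphorylates the type I receptor encoded by Tgfbr1, and that kinase activates SMAD2 and SMAD3. In tumours the pathway is known for the activation of fibroblasts and for restraining T cells, and its own inhibitors, among them the products of Smad7 and Skil, are early targets.

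Library totals lay between 34076477 and 42067481 counts. Of the fibroblast markers, Col1a1, a collagen chain, lay between 1896 and 3354 CPM. CPM, the unit of level here, is a gene's counts relative to the scaled size of its library. Fap, the gene of fibroblast activation protein, lay between 4.77 and 18.9 CPM. Of the epithelial markers, Krt8 lay between 231 and 437 CPM, while Epcam, a defining surface marker of carcinoma cells, stayed between 0.0824 and 8.18 CPM. The RT libraries stood apart by skeletal muscle transcripts: the 15 muscle markers summed to between 6306 and 14130 CPM in RT, against 502 to 989.7 in RT_FAP41BBL, 77.8 to 2191 in FAP41BBL and 59.0 to 654 in untreated. The macrophage and monocyte markers summed to 5180 to 6688 CPM in RT_FAP41BBL, 2740 to 4597 in RT, 3941 to 4809 in FAP41BBL and 3392 to 4406 in untreated. No marker of either list was at 0 in any library.

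The largest changes among the 9 genes were in Il11 and Inhba, which rose in RT and in RT_FAP41BBL relative to untreated. In RT_FAP41BBL against FAP41BBL neither passed the test. Every FAP41BBL library was also above every untreated library for Inhba (log2 fold change 0.89). That change did not pass, in a comparison where only 1 of 17757 genes did. Tgfb3, the most abundant TGF-beta ligand transcript of untreated tumours, was lower when both treatments were given, and Tgfbr1 was higher under the combination than under radiotherapy alone. Tgfb1, Tgfb2, Tgfbr2, Smad7 and Skil passed the test in none of the 6 pairwise comparisons. Values below are CPM in libraries 1, 2 and 3 of each group, changes are log2 fold changes ± SE, and adjusted p-values are from edgeR's quasi-likelihood test with Benjamini-Hochberg adjustment over 17757 genes.

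**Figure D1:**
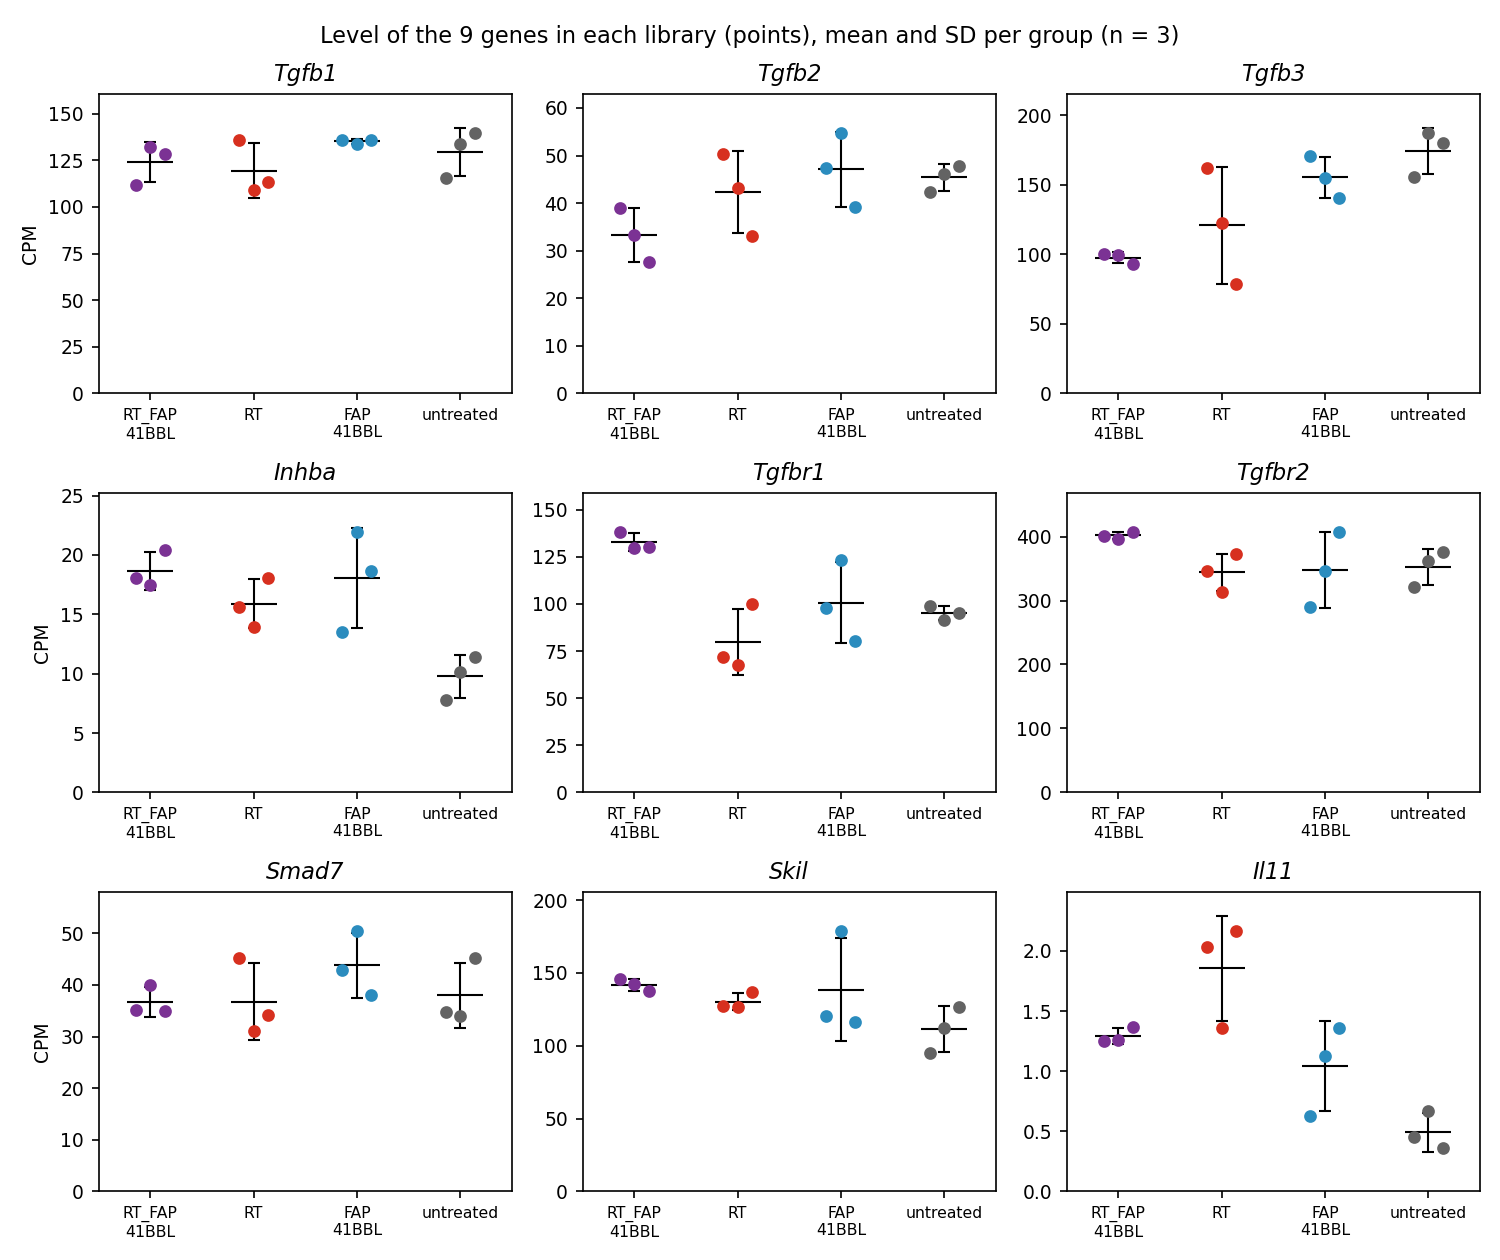
Level of each of the 9 genes in CPM (vertical axes, from 0) by treatment group, with 1 point a library and the mean and SD of 3 libraries as bars. The mean of Il11 is lowest in untreated, 2 of the FAP41BBL libraries and all RT and RT_FAP41BBL libraries lie above 1 CPM, and Tgfb3 is at most 100.3 CPM in the RT_FAP41BBL libraries.

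Tgfb1 encodes the ligand best known from immune and stromal cells (ENSMUSG00000002603.16, GRCm39 chromosome 7, 25386427 to 25404502). It measured 112, 132 and 128 CPM in RT_FAP41BBL, 136, 109 and 113 in RT, and 136, 134 and 136 in FAP41BBL, against 115, 134 and 139.9 in untreated. The groups overlapped, except that the RT_FAP41BBL libraries were all below those of FAP41BBL. Its coefficient of variation over the 12 libraries, 8.93%, was the smallest of the 9 genes, and its pairwise changes ran from -0.18 to 0.06 with adjusted p-values of at least 0.458.

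Tgfb2 encodes the ligand that depends most on a coreceptor for binding (ENSMUSG00000039239.15, chromosome 1, 186354989 to 186438186). Its values were 39.0, 33.3 and 27.7 CPM in RT_FAP41BBL, 50.4, 43.3 and 33.2 in RT, and 47.3, 54.8 and 39.1 in FAP41BBL, with 42.3, 46.2 and 47.7 in untreated. All 3 RT_FAP41BBL libraries were below every FAP41BBL and every untreated library. The differences missed the threshold, at -0.45 ± 0.17 against untreated (adjusted p = 0.128) and -0.50 ± 0.17 against FAP41BBL (adjusted p = 0.196).

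Tgfb3 encodes the third ligand of the family (ENSMUSG00000021253.8, chromosome 12, 86103519 to 86125815). It stood at 100.3, 99.5 and 92.9 CPM in RT_FAP41BBL, 162.5, 122 and 78.4 in RT, and 171, 155 and 141 in FAP41BBL, compared with 155, 188 and 180.2 in untreated. The RT_FAP41BBL libraries were tightly grouped and lay below every FAP41BBL and untreated library, whereas RT was spread from below RT_FAP41BBL, in replicate 3, to within the ranges of FAP41BBL and untreated, in replicate 1. Group means were 97.6 ± 4.03 CPM in RT_FAP41BBL and 174 ± 16.9 CPM in untreated (SD, n = 3 each), a 1.79-fold lower level in RT_FAP41BBL (log2 -0.84 ± 0.20, adjusted p = 0.0252).

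In bulk tumour RNA, fewer cells of a type and less RNA per cell cannot be told apart. None of the 10 fibroblast markers passed the test in that comparison, and their sum lay between 8033 and 8533 CPM in RT_FAP41BBL and between 6691 and 9132 CPM in untreated. Most of that sum is collagen transcripts. The log2 changes lay above 0 for 5 of the 10, with a list median of 0.075. Those with the smallest p were Thy1 (0.54 ± 0.17, adjusted p = 0.0769), Pdgfrb (-0.72 ± 0.24, adjusted p = 0.0969), Postn (0.45 ± 0.18, adjusted p = 0.148) and Pdgfra (-0.24 ± 0.15, adjusted p = 0.362). The part of fibroblast number in the Tgfb3 change was not tested. With the muscle score of each library (mean log2 CPM of the 15 muscle markers) as a covariate, Tgfb3 was at -0.77 ± 0.21 (adjusted p = 0.0604). The Tgfb3 call was lost in 5 of the 6 fits that left out 1 of the compared libraries, and held without untreated replicate 1 (log2 -0.91, adjusted p = 0.0451); in the others adjusted p-values ran from 0.0654 to 0.101.

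The other Tgfb3 comparisons did not pass. RT_FAP41BBL against FAP41BBL gave -0.67 ± 0.20 (adjusted p = 0.141), RT against untreated gave -0.53 ± 0.20 (adjusted p = 0.122), and RT_FAP41BBL against RT gave -0.31 ± 0.20 (adjusted p = 0.383). RT replicates 1 and 3 decided how the RT group compared. Without RT replicate 1, the change in RT against untreated was -0.80 (adjusted p = 0.0141), and without RT replicate 3 that in RT_FAP41BBL against RT was -0.55 (adjusted p = 0.0248). RT replicate 3, the lowest of all libraries for Tgfb3, had the highest muscle marker sum, 14130 CPM. Within RT it also had the highest fibroblast (10920 CPM) and endothelial (353 CPM) marker sums and the lowest epithelial sum (325 CPM). The part of any of these in its Tgfb3 level was not tested. With the muscle score as a covariate, Tgfb3 in RT against untreated was at -0.30 ± 0.33 (adjusted p = 0.8).

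Levels of different genes were compared per kilobase of exon. Tgfb3 made up 48.7% ± 1.66 of the summed length-scaled level of the 3 TGF-beta ligand genes in RT_FAP41BBL, 52.6% ± 6.57 in RT, 56.7% ± 1.96 in FAP41BBL and 60.55% ± 0.981 in untreated (SD, n = 3 each). Tgfb1 held 41.6% ± 3.28 in RT_FAP41BBL and 30.2% ± 0.792 in untreated, and Tgfb2 held 9.72% ± 1.64 in RT_FAP41BBL and 9.23% ± 0.368 in untreated. For Tgfb3, every RT_FAP41BBL library (47.6% to 50.6%) was below every untreated one (59.7% to 61.6%). By group mean, the ratio of Tgfb3 to Tgfb1 was lowest under the combination, at 1.18 ± 0.138 in RT_FAP41BBL and 2.005 ± 0.083 in untreated. The sum of the 3 ligands was 59.2 ± 1.95 CPM per kilobase in RT_FAP41BBL, 66.8 ± 16.3 in RT, 80.9 ± 5.19 in FAP41BBL and 85.1 ± 7.80 in untreated. These shares and sums carry no test; with 3 libraries against 3, an exact permutation test cannot go below p = 0.1.

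**Figure D2:**
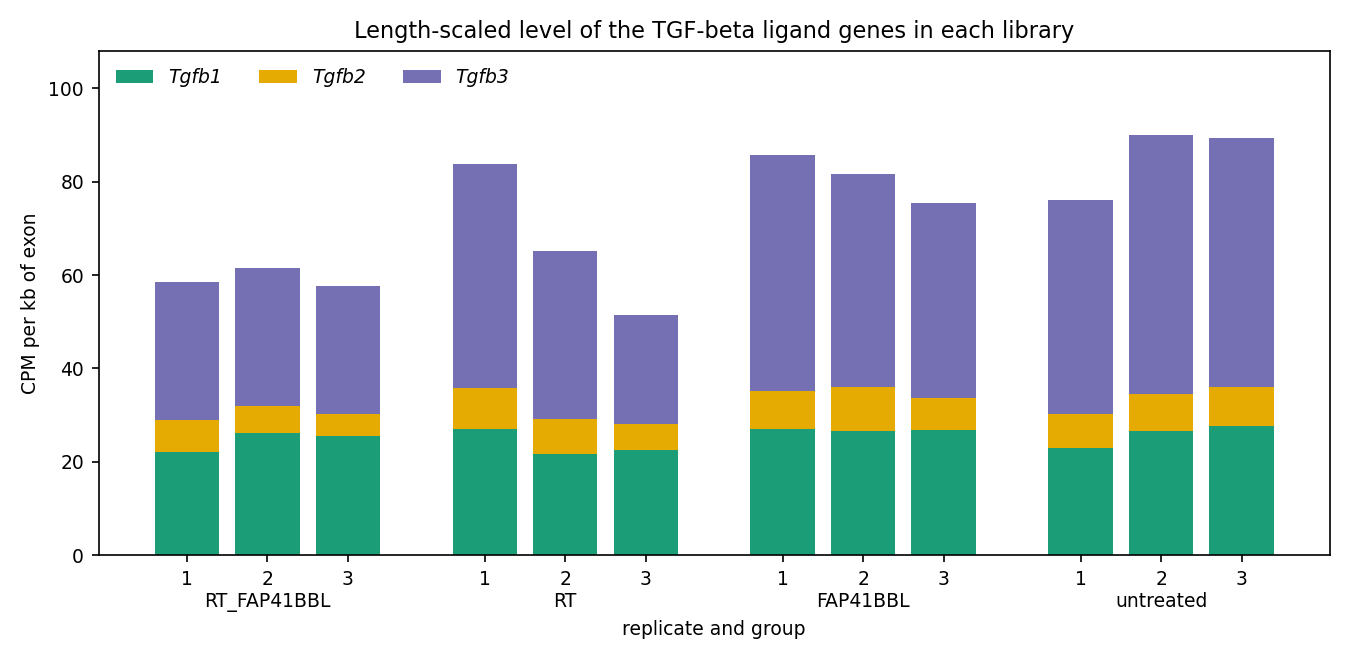
Length-scaled level of Tgfb1, Tgfb2 and Tgfb3 (CPM per kilobase of exon, stacked from 0) in each of the 12 libraries, grouped by treatment. The Tgfb3 segment is shortest in the RT_FAP41BBL libraries and RT replicate 3, while the Tgfb1 segment stays between 21.6 and 27.7.

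Inhba encodes the beta A subunit, whose dimer is activin A, a relative of TGF-beta that signals through the same SMAD proteins by other receptors (ENSMUSG00000041324.15, chromosome 13, 16186436 to 16206206). Its level was 18.1, 17.4 and 20.4 CPM in RT_FAP41BBL, 15.6, 13.97 and 18.1 in RT, and 13.5, 21.96 and 18.7 in FAP41BBL, against 7.80, 10.1 and 11.4 in untreated. Every library of every treated group was above every untreated library, and the treated groups overlapped one another. Inhba rose in RT_FAP41BBL by 0.93 ± 0.19 (1.91-fold, adjusted p = 0.0112) and in RT by 0.70 ± 0.19 (1.63-fold, adjusted p = 0.0328), both against untreated.

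For FAP41BBL the Inhba difference from untreated was 0.89 ± 0.19, with an unadjusted p of 0.000405 and an adjusted p of 0.379; only 1 of the 17757 genes, no member of the set, passed in that comparison. DESeq2 called Inhba there (log2 0.88, adjusted p = 0.00929). The 3 comparisons share the untreated libraries. In RT_FAP41BBL against FAP41BBL, Inhba differed by 0.048 ± 0.18 (adjusted p = 0.95). The Inhba call in RT was lost in 4 of 6 fits that left out 1 library (log2 0.56 to 0.83 over all 6, adjusted p 0.041 to 0.112), namely those without RT replicate 1 or 3 or untreated replicate 1 or 2. In RT_FAP41BBL it was lost without untreated replicate 2 (log2 0.93, adjusted p = 0.0575).

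Il11 encodes interleukin-11, a cytokine that fibroblasts release in response to TGF-beta and that signals through gp130 (ENSMUSG00000004371.16, chromosome 7, 4775372 to 4785858). The gene was scarce, with 49, 47 and 51 counts in the RT_FAP41BBL libraries, 77, 56 and 87 in RT, and 25, 39 and 47 in FAP41BBL, compared with 16, 26 and 13 in untreated. In CPM these were 1.25, 1.26 and 1.37 in RT_FAP41BBL, 2.04, 1.36 and 2.17 in RT, and 0.629, 1.13 and 1.36 in FAP41BBL, against 0.449, 0.669 and 0.357 in untreated. Both irradiated groups lay wholly above untreated, and FAP41BBL overlapped untreated through its replicate 1.

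Against untreated, Il11 rose 3.74-fold in RT (log2 1.90 ± 0.34, adjusted p = 0.00567) and 2.61-fold in RT_FAP41BBL (log2 1.38 ± 0.34, adjusted p = 0.0292). FAP41BBL stood 2.10-fold above untreated and did not pass (log2 1.07 ± 0.35, unadjusted p = 0.00917, adjusted p = 0.829). RT_FAP41BBL against RT gave -0.52 ± 0.32 (adjusted p = 0.368), and RT_FAP41BBL against FAP41BBL gave 0.32 ± 0.33 (adjusted p = 0.742). The call in RT held in all 6 fits that left out 1 library (log2 1.72 to 2.17, adjusted p 0.00786 to 0.0273). The call in RT_FAP41BBL was lost in all 6, with log2 changes of 1.2 to 1.64 and adjusted p-values of 0.0557 to 0.106.

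Muscle transcripts moved with the RT group. Of the 15 muscle markers 7 passed the test as higher in RT than in untreated, where 6.57% of all genes did. The mean log2 CPM of all 15 ran from 7.99 to 9.16 in RT and from 1.30 to 4.71 in untreated, so that in this comparison muscle level and radiotherapy cannot be told apart. With that score as a covariate, Il11 in RT stood at 1.35 ± 0.55 (adjusted p = 0.358) and Inhba at 1.00 ± 0.31 (adjusted p = 0.232). RT_FAP41BBL libraries had scores of 4.43 to 5.33, which overlap the untreated range. There the fit with the covariate gave Inhba 1.02 ± 0.20 (adjusted p = 0.0134) and Il11 1.24 ± 0.36 (adjusted p = 0.0667).

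The promoters of these 2 genes are shown because they are the genes of the set called in both irradiated groups. RefSeq promoter windows (GRCm38.p6), from 250 bases before to 50 after a transcript start, were found for 6 of the 9 genes. Il11 has 2 starts there, at chr7:4782808-4783107 (start 1) and chr7:4778092-4778391 (start 2), both on the minus strand, and Inhba has 1, at chr13:16011601-16011900 on the plus strand. Capitals mark matches on either strand to the AP-1 motif TGANTCA, the SMAD box CAGAC and the SMAD palindrome GTCTAGAC; no marked stretch overlaps another.
Il11 start 2: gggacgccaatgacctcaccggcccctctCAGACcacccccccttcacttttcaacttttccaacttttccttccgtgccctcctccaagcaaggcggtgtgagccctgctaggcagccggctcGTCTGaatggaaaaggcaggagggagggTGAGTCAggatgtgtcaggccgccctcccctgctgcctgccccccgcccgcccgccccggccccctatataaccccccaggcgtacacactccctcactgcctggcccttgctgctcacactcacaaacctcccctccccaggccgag
Il11 start 1: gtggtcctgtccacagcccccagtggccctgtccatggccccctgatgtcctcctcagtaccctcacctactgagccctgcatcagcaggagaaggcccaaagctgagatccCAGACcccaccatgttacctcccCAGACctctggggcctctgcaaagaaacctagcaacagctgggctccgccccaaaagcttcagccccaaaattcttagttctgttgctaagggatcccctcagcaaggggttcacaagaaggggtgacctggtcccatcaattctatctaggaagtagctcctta
Inhba: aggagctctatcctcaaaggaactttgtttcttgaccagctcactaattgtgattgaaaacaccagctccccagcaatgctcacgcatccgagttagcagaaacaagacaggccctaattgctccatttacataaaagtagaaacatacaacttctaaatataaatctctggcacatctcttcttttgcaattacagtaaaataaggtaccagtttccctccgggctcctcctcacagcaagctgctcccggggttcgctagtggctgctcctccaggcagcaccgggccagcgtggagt
Il11 start 2 holds 1 AP-1 match, which begins at position -98 from the start, and 2 SMAD boxes, 1 of them read on the opposite strand as GTCTG. Il11 start 1 holds 2 SMAD boxes, and the Inhba window has no match to any of the 3 motifs. Over 32851 promoter windows of this length, 7.81% hold the AP-1 motif, 49.6% a SMAD box and 0.213% the palindrome. A match is a description of the letters and not evidence of binding.

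Tgfbr1 encodes the type I receptor kinase (ENSMUSG00000007613.16, chromosome 4, 47353222 to 47414931). It measured 138, 129.5 and 130.4 CPM in RT_FAP41BBL, 71.8, 67.8 and 99.9 in RT, and 97.8, 123 and 80.6 in FAP41BBL, compared with 98.7, 91.6 and 95.2 in untreated. The 3 RT_FAP41BBL libraries were the highest of the 12. Against RT the receptor gene rose 1.66-fold (log2 0.73 ± 0.16, adjusted p = 0.0232). Against untreated the difference was 0.48 ± 0.16 (adjusted p = 0.0878) and against FAP41BBL 0.40 ± 0.16 (adjusted p = 0.282).

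The Tgfbr1 call was lost in 5 of 6 fits that left out 1 library (adjusted p 0.0687 to 0.104). Without RT replicate 3, the highest RT library, it was 0.92 (adjusted p = 0.00372), and with the muscle score as a covariate it was 0.55 ± 0.22 (adjusted p = 0.275). Markers of immune cells differed in the same comparison: 5 of 10 macrophage and monocyte markers and 5 of 9 T cell markers rose in RT_FAP41BBL relative to RT. Over all genes 3.36% passed as higher there. The macrophage and monocyte sums of the groups, given above, did not overlap, and C1qa, a complement gene of tissue macrophages, averaged 1387 ± 181 CPM in RT_FAP41BBL and 737 ± 246 CPM in RT (SD, n = 3 each). T cell markers summed to 96.2 to 133 CPM in RT_FAP41BBL and 35.2 to 67.5 CPM in RT, with none at 0. Their part in the Tgfbr1 result was not tested.

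**Figure D3:**
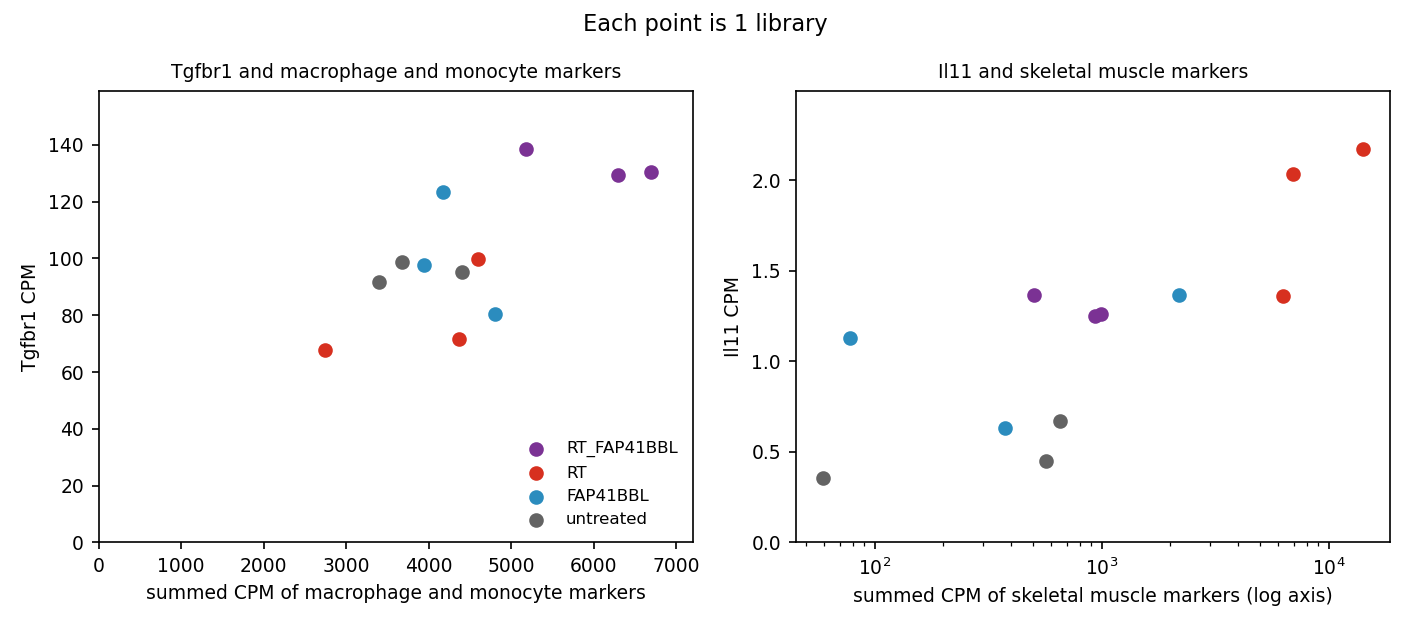
Left, Tgfbr1 (CPM) against the summed CPM of the macrophage and monocyte markers; right, Il11 (CPM) against the summed CPM of the skeletal muscle markers on a log axis, with 1 point a library coloured by group. The 3 RT_FAP41BBL libraries are highest on both axes of the left panel, and the 3 RT libraries lie farthest right in the right panel, with 2 of them highest for Il11.

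Tgfbr2 encodes the ligand-binding type II receptor (ENSMUSG00000032440.14, chromosome 9, 115913361 to 116004428). Its levels were 402, 396 and 408 CPM in RT_FAP41BBL, 346, 313 and 372 in RT, and 289, 347 and 408 in FAP41BBL, against 321, 361 and 376 in untreated. The RT_FAP41BBL libraries were above all RT and untreated libraries, by a small margin. The differences of 0.22 ± 0.12 from RT (adjusted p = 0.311) and 0.19 ± 0.12 from untreated (adjusted p = 0.406) did not pass. Per kilobase of exon, the ratio of Tgfbr2 to Tgfbr1 was 2.42 ± 0.0916 in RT_FAP41BBL, 3.504 ± 0.467 in RT, 2.88 ± 1.00 in FAP41BBL and 2.97 ± 0.320 in untreated (SD, n = 3 each).

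Smad7 and Skil encode inhibitors that the pathway induces against itself. Smad7, which blocks the type I receptor (ENSMUSG00000025880.12, chromosome 18), measured 35.1, 40.02 and 34.9 CPM in RT_FAP41BBL, 45.1, 31.0 and 34.2 in RT, and 42.8, 50.5 and 38.1 in FAP41BBL, compared with 34.8, 33.9 and 45.2 in untreated. All groups overlapped, and the pairwise changes ran from -0.26 to 0.21 with adjusted p-values of at least 0.47.

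Skil, whose product SnoN represses SMAD complexes (ENSMUSG00000027660.17, chromosome 3, 31149207 to 31176726), stood at 146, 142 and 137.5 CPM in RT_FAP41BBL, 127.5, 127 and 137 in RT, and 120.7, 179 and 116 in FAP41BBL, against 95, 112 and 126.5 in untreated. The RT_FAP41BBL libraries were above all RT libraries and all untreated libraries, and the RT libraries were above all untreated libraries. None of these differences passed: RT_FAP41BBL against untreated gave 0.35 ± 0.15 (adjusted p = 0.185) and RT against untreated gave 0.23 ± 0.15 (adjusted p = 0.395). The highest single library was FAP41BBL replicate 2.

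The order of the genes by length-scaled level differed between the groups at its top. In RT_FAP41BBL, Tgfbr2 (49.1 ± 0.726 CPM per kilobase) stood above Tgfb3 (28.8 ± 1.19) and Tgfb1 (24.6 ± 2.17), whereas in untreated Tgfb3 (51.6 ± 4.98) stood above Tgfbr2 (43.1 ± 3.47), although the lowest Tgfb3 library and the highest Tgfbr2 library met there at 45.9. Averaged over the 12 libraries, Tgfbr1 and Skil followed Tgfb1 at 15.6 and 13.5. By group mean they changed places in RT, at 12.2 ± 2.68 and 13.4 ± 0.578, but not in RT replicate 3 (15.3 and 14.1). Smad7 and Tgfb2, at 8.58 and 7.26 over all libraries, differed by less than the SD in RT (8.13 ± 1.64 and 7.30 ± 1.49). Inhba (2.44) and Il11 (0.562) were the least abundant. They were also the most variable, with coefficients of variation of 27.7% and 48.9%, followed by Tgfb3 with 27.1%.

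Counted by comparison, 2 of the 9 genes passed as higher in RT than in untreated (Il11 and Inhba), where 9.62% of the 17757 genes passed in either direction and 6.57% as higher. In RT_FAP41BBL against untreated 2 rose (Inhba and Il11) and 1 fell (Tgfb3), with 7.91% of all genes called, 5.59% higher and 2.31% lower. In RT_FAP41BBL against RT only Tgfbr1 passed, against 5.76% of all genes in either direction and 3.36% as higher. The median log2 change of the 9 genes was -0.047 in RT against untreated, 0.187 in RT_FAP41BBL against untreated and 0.056 in RT_FAP41BBL against RT, beside -0.002, 0.01 and -0.003 over all genes tested. The first pair of these comparisons share the untreated libraries, and the last shares a group with each of them.

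In the other comparisons edgeR called none of the 9. In FAP41BBL against untreated, where 0.00563% of all genes were called, 2 of the 9 had an unadjusted p under 0.05 (Il11 and Inhba), as had 918 of all 17757. DESeq2 called 1 of the 9 there (Inhba), with 0.271% of all genes called, and limma-voom 0 (0.00563%). In RT_FAP41BBL against FAP41BBL (0.946% of all genes called), 3 had an unadjusted p under 0.05 (Tgfb2, Tgfbr1 and Tgfb3), as had 2398 of all 17757. DESeq2 called 1 of the 9 there (Tgfb3, log2 -0.68, adjusted p = 0.0225), with 4.42% of all genes called, and limma-voom 0 (1.33%). In RT against FAP41BBL (3.51% called), 1 had an unadjusted p under 0.05 (Il11, log2 0.84 ± 0.33, adjusted p = 0.202), as had 3032 of all 17757. DESeq2 and limma-voom called 0 of the 9 there, and 7.52% and 4.82% of all genes.

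The interaction, the agonist's change with radiotherapy minus its change without it, was called by edgeR for 0.152% of all genes and for none of the 9. DESeq2 and limma-voom also called 0 of the 9, and 3.61% and 0.158% of all genes. Those with an unadjusted p under 0.05 were the 3 genes Tgfbr1 (0.65 ± 0.23, adjusted p = 0.22), Il11 (-1.59 ± 0.47, adjusted p = 0.166) and Inhba (-0.65 ± 0.26, adjusted p = 0.283). Of all 17757 genes, 2497 had an unadjusted p under 0.05.

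Groups did not overlap for more genes than passed the test. In RT_FAP41BBL against untreated 5 of the 9 were wholly higher and 2 wholly lower, as were 20% and 18.5% of all genes tested. RT against untreated had 3 wholly higher (14.9% of all genes), RT_FAP41BBL against RT had 3 wholly higher (14.5%), and FAP41BBL against untreated had 1 wholly higher (5.7%). In RT_FAP41BBL against FAP41BBL 1 was wholly higher (12.3% of all genes) and 3 were wholly lower (10.9%), and in RT against FAP41BBL all 9 overlapped (17.1% of all genes did not).

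**Figure D4:**
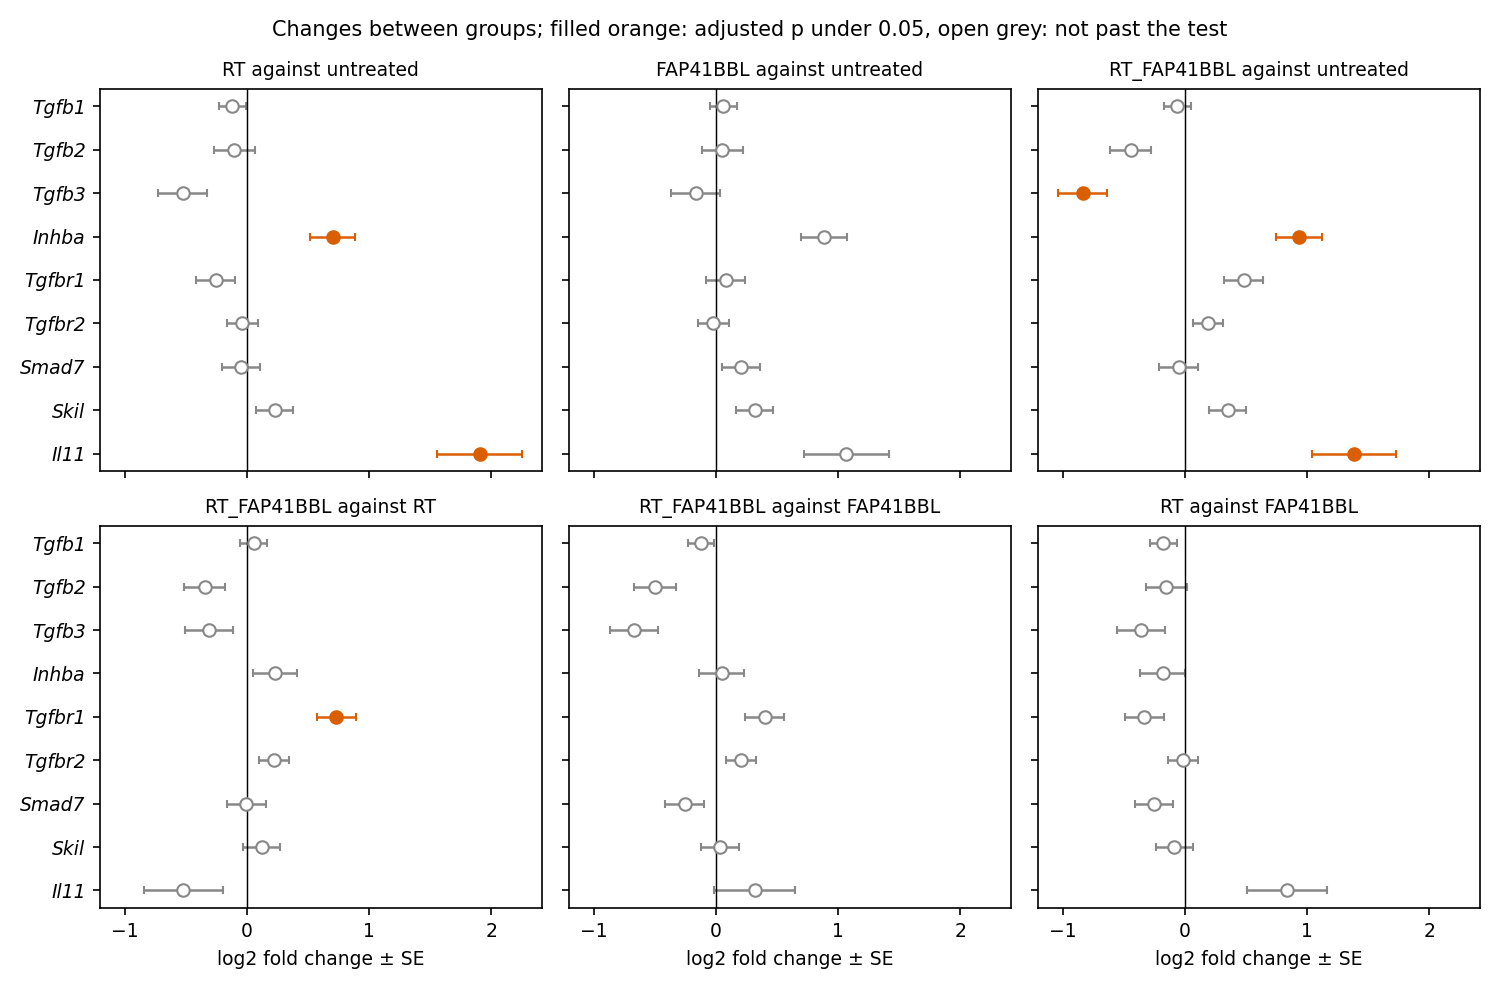
Log2 fold change ± SE of each gene in the 6 pairwise comparisons from the fit over 12 libraries, with filled orange points for adjusted p-values under 0.05 and open grey points otherwise. Filled points are Il11 and Inhba in RT against untreated, these and Tgfb3 (-0.84) in RT_FAP41BBL against untreated, and Tgfbr1 (0.73) in RT_FAP41BBL against RT.

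Other genes of the pathway were read from lists grouped by role. Over all genes tested, 6.57% were called as higher in RT than in untreated, and 9.62% in either direction. In RT_FAP41BBL 5.59% were called as higher than in untreated and 2.31% as lower, and 3.36% as higher than in RT. Of 11 genes of TGF-beta storage and activation, Itgb6, a chain of an integrin that frees latent TGF-beta, rose in RT relative to untreated, at 3.54 ± 0.591 CPM in RT and 1.37 ± 0.761 CPM in untreated (log2 1.37 ± 0.34, adjusted p = 0.0259). Nrros, which anchors latent TGF-beta on myeloid cells, rose in RT_FAP41BBL, at 105 ± 7.73 CPM against 64.9 ± 5.496 CPM in untreated (log2 0.69 ± 0.14, adjusted p = 0.0107). No other gene of this list passed in any comparison.

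Of 10 further receptors and coreceptors, 2 rose in RT_FAP41BBL relative to untreated. Acvrl1, a type I receptor of endothelial cells, averaged 69.6 ± 10.6 CPM in RT_FAP41BBL and 33.2 ± 4.18 CPM in untreated (log2 1.07 ± 0.24, adjusted p = 0.0213). Eng, the endothelial coreceptor endoglin, averaged 112 ± 13.3 CPM in RT_FAP41BBL and 69.4 ± 6.56 CPM in untreated (log2 0.69 ± 0.19, adjusted p = 0.04). In that comparison 1 of 6 endothelial markers (Kdr, log2 0.91) and 6 of 10 macrophage and monocyte markers rose as well. Endothelial markers summed to 312 to 359.5 CPM in RT_FAP41BBL and 219.7 to 249 CPM in untreated, with none at 0, and their part in these results was not tested.

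Among the 7 SMAD genes listed, 2 fell in RT_FAP41BBL relative to untreated. Smad3, the signal carrier of TGF-beta and activin, averaged 82.1 ± 7.52 CPM in RT_FAP41BBL and 109 ± 8.22 CPM in untreated (log2 -0.41 ± 0.11, adjusted p = 0.0353). Smad5, which carries bone morphogenetic protein signals, averaged 104 ± 7.97 CPM in RT_FAP41BBL and 137 ± 4.403 CPM in untreated (log2 -0.40 ± 0.09, adjusted p = 0.0218). The list's median change there was -0.089, beside 0.01 over all genes.

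Of 24 TGF-beta target genes, 2 rose and 1 fell in RT relative to untreated, and 1 rose and 1 fell in RT_FAP41BBL. For 24 genes these counts lay near the shares of all genes called, 9.62% in RT and 7.91% in RT_FAP41BBL. Tagln, an actin-binding protein of contractile cells, rose in both (log2 1.07 ± 0.25 in RT, adjusted p = 0.0199, and 0.91 ± 0.25 in RT_FAP41BBL, adjusted p = 0.0448). Sphk1, a sphingosine kinase, fell in both (-1.03 ± 0.26 in RT, adjusted p = 0.0287, and -1.07 ± 0.26 in RT_FAP41BBL, adjusted p = 0.0276). Timp1, an inhibitor of metalloproteinases, rose in RT, at 92.1 ± 21.8 CPM in RT and 51.9 ± 0.664 CPM in untreated (log2 0.83 ± 0.15, adjusted p = 0.00599).

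In RT_FAP41BBL against RT, 1 target gene passed: Tgfbi, a secreted matrix protein, averaged 637 ± 31.6 CPM in RT_FAP41BBL and 396 ± 50.2 CPM in RT (log2 0.68 ± 0.14, adjusted p = 0.0195). The median change of the 24 target genes was -0.004 in RT against untreated, -0.025 in RT_FAP41BBL against untreated and -0.023 in RT_FAP41BBL against RT, close to the medians of all genes given above. Col1a1, Col1a2, Col3a1 and Postn stand on both this list and the fibroblast list.

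The receptor of interleukin-11 and its gp130 family held 10 genes. In RT relative to untreated, 3 cytokine genes rose, Il6 (log2 1.32 ± 0.34, adjusted p = 0.0301), Osm (0.81 ± 0.24, adjusted p = 0.0491) and Lif (0.70 ± 0.16, adjusted p = 0.0168). Il6ra, the interleukin-6 receptor gene, fell in RT (-0.43 ± 0.11, adjusted p = 0.0272) and was higher in RT_FAP41BBL than in RT, at 105 ± 5.75 CPM in RT_FAP41BBL and 67.9 ± 6.77 CPM in RT (0.63 ± 0.11, adjusted p = 0.0108). Socs3, a feedback inhibitor of gp130 signalling, rose in RT_FAP41BBL relative to untreated (0.71 ± 0.16, adjusted p = 0.0214). Il6, like Il11, was scarce, at 2.10 ± 0.127 CPM in RT and 0.839 ± 0.300 CPM in untreated.

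None of the 11 extracellular and cytoplasmic inhibitors, and none of the 7 tested genes among 10 activin-related ligands, was called by edgeR in any of these comparisons. Closest to the threshold in RT against untreated were Bmp7 (-1.2 ± 0.36, adjusted p = 0.0577) and Gdf15, a stress-induced ligand (1.49 ± 0.46, adjusted p = 0.0651). Gdf15 was scarce, at 0.84 ± 0.305 CPM in RT and 0.297 ± 0.108 CPM in untreated. Inhbb in RT_FAP41BBL was as close, against untreated (0.51 ± 0.15, adjusted p = 0.0562) and against RT (0.53 ± 0.15, adjusted p = 0.0598). No gene of the 7 lists was called in FAP41BBL against untreated, RT_FAP41BBL against FAP41BBL, RT against FAP41BBL or the interaction. Beside these calls, 7 of 15 muscle markers rose in RT relative to untreated, and 6 of 10 macrophage and monocyte markers and 2 of 9 T cell markers rose in RT_FAP41BBL relative to untreated. In RT_FAP41BBL relative to RT, 5 of 10 and 5 of 9 of them rose, and the part of these immune markers in the calls above was not tested.

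With the muscle score as a covariate, none of the 8 calls of the lists in RT against untreated held (adjusted p 0.131 for Lif to 0.827 for Itgb6), nor did the 2 in RT_FAP41BBL against RT (Tgfbi, adjusted p = 0.128, and Il6ra, adjusted p = 0.197). That fit called 0.0169% of all genes in RT against untreated and 0.00563% in RT_FAP41BBL against RT. In RT_FAP41BBL against untreated, where it called 5.08% of all genes, 3 of 8 held: Nrros (adjusted p = 0.0284), Acvrl1 (adjusted p = 0.0499) and Socs3 (adjusted p = 0.0266). Eng, Smad3, Smad5, Tagln and Sphk1 were there at adjusted p-values of 0.0576 to 0.105.

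**Figure D5:**
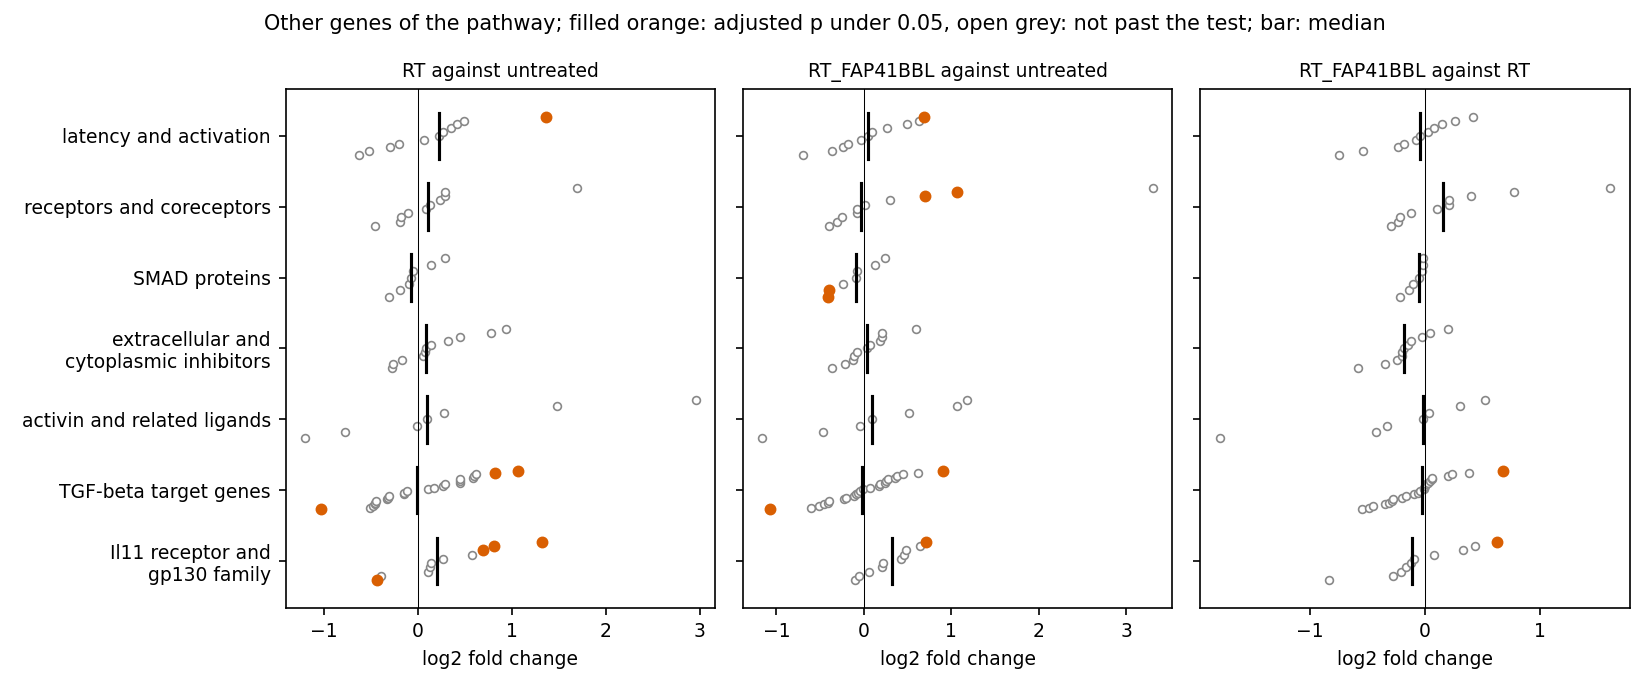
Log2 fold change of each tested gene of the 7 pathway lists (rows) in RT against untreated, RT_FAP41BBL against untreated and RT_FAP41BBL against RT, with filled orange points for adjusted p-values under 0.05, open grey points otherwise and a bar at the list's median. The list with most calls for its size is the Il11 receptor and gp130 family in RT against untreated, with 4 of 10, and the called target genes of that comparison lie on both sides of 0 (Tagln 1.07, Timp1 0.83, Sphk1 -1.03).

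Genes with profiles most like those of the 4 changed members were found from log2 CPM centred on each gene's mean, by the root mean square difference over the 12 libraries. For Il11, whose own spread was 0.74 on this scale, they were Car2 (0.302), Ptgs2 (0.306), which encodes an inducible prostaglandin synthase, and Art3 (0.317). Ptgs2 averaged 119.9 CPM in RT_FAP41BBL, 158 in RT, 95.8 in FAP41BBL and 45.3 in untreated. For Inhba (own spread 0.426) they were Slc30a1, a zinc exporter gene (0.186), Zfp799 (0.198) and Fnip2 (0.201). For Tgfb3 (0.404) they were Pxylp1 (0.1097), Cda, the cytidine deaminase gene (0.122), and Trib2 (0.134). For Tgfbr1 (0.324) they were Gsap (0.0966), Naip2, a sensor of bacterial proteins in macrophages (0.128), and Zfp810 (0.136). These likenesses are descriptions over libraries that share treatment and cell composition.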

How the data were processed

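The 12 stranded poly(A) RNA libraries were sequenced as read pairs, per the labels' protocols. Each deposited file holds the raw counts of 1 library, made with featureCounts 1.6.0 on GRCm39 with read pairs counted as fragments and strand used, per the file headers. Alignment and quality tools, STAR 2.7.9a and FastQC 0.11.8, come from the submitters' processing notes, which also list edgeR and limma.

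Groups came from the treatment label. Symbols for 51948 of 56884 gene identifiers (91.3%) came from a GENCODE annotation of another release. In R 4.3.3, edgeR 4.0.16 filtered genes by filterByExpr (17757 kept), scaled libraries by TMM and fitted 1 model with 4 groups to all 12 libraries (8 residual degrees of freedom). Contrasts used the quasi-likelihood test with the robust option, and p-values were adjusted over all genes by Benjamini-Hochberg (called under 0.05). Alternatives used DESeq2 1.42.0, limma-voom 3.58.1, RLE factors, library totals, no filter, the replicate number as a block, a muscle score covariate (mean log2 CPM of 15 genes, prior count 2), only the compared groups, each library left out in turn and, added after seeing the data, the test without the robust option and, for RT against FAP41BBL, the replicate block with only those libraries. Same-numbered RT and FAP41BBL libraries deviated together from their group means. Their r was 0.121 to 0.264 over 3 pairs, against -0.292 to 0.0993 over 6 pairs with other numbers. FAP41BBL and untreated libraries with other numbers reached 0.399. This pairing comes from the values, not from the labels, and the values do not settle it. With that block and only those libraries 640 genes (3.76%) were called, against 210 (1.23%) with only those libraries and no block. The fit as reported, over all 12 libraries, called 623 (3.51%). Each of these fits called 0 of the 9.

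No libraries of a group were copies: their counts differed by a chi-square per degree of freedom of 19.6 or more. On simulated counts for RT against untreated, 53.5% of 200 genes changed 2-fold were recovered over 17475 genes, with 2.73% of calls false. All other genes had equal means in the 4 groups, with no difference in cell makeup. In the real comparison 9.62% of all genes were called, so these shares may not carry over to it. The 9 genes and the lists were chosen with earlier results of these data known. The text names all 9 members, of each pathway list up to 4 genes with the smallest p in a comparison, and up to 3 genes of like profile with mean log2 CPM 1 or higher; markers named as checks were chosen from the lists after their values were seen.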

Additional observations from a re-analysis of the deposited data

Results flagged for a closer look

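The group means of Il11 moved in opposite directions with the agonist in the absence and in the presence of radiotherapy. By the ratio of mean CPM, FAP41BBL was above untreated by log2 1.08 (1.04 ± 0.375 CPM in FAP41BBL and 0.492 ± 0.161 CPM in untreated), and RT_FAP41BBL differed from RT by log2 -0.522 (1.29 ± 0.0656 CPM in RT_FAP41BBL and 1.85 ± 0.434 CPM in RT; SD, n = 3 each). Each FAP41BBL library was above the untreated mean and each RT_FAP41BBL library was below the RT mean, which is what drew attention to it. The libraries overlapped in both comparisons. FAP41BBL replicate 1 (0.629 CPM) was below untreated replicate 2 (0.669 CPM), and RT replicate 2 (1.359 CPM) was below RT_FAP41BBL replicate 3 (1.367 CPM). The difference between these changes missed the threshold by edgeR's interaction test (log2 -1.59 ± 0.47, adjusted p = 0.166), and neither change passed on its own.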

How the results depend on the processing

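Of 999 log2 fold changes of the 9 genes refitted under the alternatives, 919 kept their direction and side of the threshold, 43 turned in sign, 27 lost a call and 10 gained one. RLE factors, library totals, no low-count filter, limma-voom and the test without the robust option changed no call of the 9 genes. The number of the 9 genes called in RT against untreated, 2 in the fit as reported, was 0 with the muscle score as a covariate, 1 with only the compared groups and 1 to 2 when 1 library was left out. In RT_FAP41BBL against untreated it was 3 as reported, 6 with only the compared groups (Tgfb2, Tgfbr1 and Skil added), 4 with DESeq2 (Tgfbr1 added, adjusted p = 0.0481), 2 with the covariate (Inhba and Skil; Skil 0.51 ± 0.13, adjusted p = 0.0397) and 0 to 2 when 1 library was left out. In RT_FAP41BBL against RT it was 1 as reported, 0 with the covariate and 0 to 2 when 1 library was left out. DESeq2 raised the count from 0 to 1 in FAP41BBL against untreated (Inhba) and in RT_FAP41BBL against FAP41BBL (Tgfb3), and only the compared groups gave 1 in the last (Tgfb3, log2 -0.69, adjusted p = 0.0214). Calls over all genes moved with these settings. In RT against untreated 9.62% of all genes were called as reported, 0.0169% with the covariate and 6.3% with only the compared groups. Leaving out 1 library gave 4.43% to 10.9% there. In RT_FAP41BBL against untreated the calls were 7.91% as reported, 19.1% with only the compared groups, 13.1% with DESeq2 and 5.08% with the covariate. They were 1.93% to 5.02% when 1 library was left out. In RT_FAP41BBL against RT they were 5.76% as reported, 0.00563% with the covariate and 0.385% to 12.7% when 1 library was left out. DESeq2 called 0.271% in FAP41BBL against untreated and 4.42% in RT_FAP41BBL against FAP41BBL, where only the compared groups gave 1.58%. With fewer libraries the tests have fewer residual degrees of freedom; the cause of the other changes was not tested.

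Changes that turned in sign were all of genes not past the test. With the muscle covariate they were Tgfb2 (0.27), Tgfbr1 (0.006) and Smad7 (0.42) in RT against untreated, Smad7 (0.10) in RT_FAP41BBL against untreated, Tgfb1 (-0.015) and Skil (-0.23) in RT_FAP41BBL against RT, and Tgfb2 (0.19), Inhba (0.081), Smad7 (0.17) and Skil (0.38) in RT against FAP41BBL. Library totals turned Smad7 in RT_FAP41BBL against RT (0.023) and Tgfb1 in the interaction (0.009), and limma-voom turned that Smad7 value (0.014). The replicate block with only the compared groups turned Tgfbr2 in RT against FAP41BBL (0.004). When 1 library was left out, values that crossed 0 ranged as follows. In RT against untreated, Tgfb2 ranged from -0.25 to 0.024, Tgfbr2 from -0.12 to 0.014 and Smad7 from -0.22 to 0.096. In FAP41BBL against untreated, Tgfb1 ranged from -0.017 to 0.12, Tgfb2 from -0.077 to 0.17, Tgfbr1 from -0.10 to 0.22 and Tgfbr2 from -0.15 to 0.087. In RT_FAP41BBL against untreated, Tgfb1 ranged from -0.14 to 0.011 and Smad7 from -0.16 to 0.092. In RT_FAP41BBL against RT, Tgfb1 ranged from -0.022 to 0.16 and Smad7 from -0.13 to 0.17. In RT_FAP41BBL against FAP41BBL, Inhba ranged from -0.14 to 0.20 and Skil from -0.079 to 0.24. In RT against FAP41BBL, Tgfbr2 ranged from -0.14 to 0.11 and Skil from -0.20 to 0.15. In the interaction, Tgfb1 ranged from -0.078 to 0.10, Tgfb3 from -0.38 to 0.13 and Skil from -0.31 to 0.014.

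Replicate numbers are shared between groups, but nothing in the labels ties them to a common animal or day. Deviations from the group means correlated between -0.316 and 0.327 over 18 same-numbered pairs, 5 of them above 0.1, over 2000 genes. For RT and FAP41BBL all 3 same-numbered pairs were above 0.1, as given with the processing. For each of the other 5 pairs of groups at least 1 was not. Pairs with other numbers reached 0.399 (FAP41BBL and untreated) and 0.335 (RT and untreated). These correlations therefore do not settle whether any libraries were paired, and by the labels the samples share only a number. With the replicate block over all libraries no call of the 9 genes changed: Il11 in RT against untreated was 1.91 ± 0.36 (adjusted p = 0.0111) and Tgfbr1 in RT_FAP41BBL against RT was 0.73 ± 0.17 (adjusted p = 0.037). Depth limits Il11, which rests on 13 to 87 counts a library. The skeletal muscle score separates the RT libraries (7.99 to 9.16) from all others (at most 6.36), so the fit with it as a covariate gave wider errors for Il11 and Inhba in RT against untreated.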
